A study of Mus musculus with 123 samples.

Results

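ES3 is 1 of 3 deposited lists of chromatin peaks that only their names place in mouse embryonic stem cells. Its 12239 peaks on chromosomes 1 to 19 are described here, of 60226 peaks in the 3 lists over all chromosomes. All peaks of the list on these chromosomes were taken, with no threshold on their values. ES1 held 25878 peaks and ES2 21202 on the same chromosomes. The series profiled methylation of lysine 4 of histone H3 in single cells, whose chromatin was barcoded in droplets so that many cells could share 1 immunoprecipitation. Per the labels, 86 libraries used an antibody against H3K4me2 and 37 an antibody against H3K4me3, in 8 groups of V6.5 mouse embryonic stem cells grown with serum and LIF, mouse embryonic fibroblasts (MEF), the blood progenitor line EML, or pools of these. Nothing in the labels links ES3 to any of these groups. Its mark, its libraries and its number of cells are therefore unknown here. Each list is a single pooled result without a replicate. Intervals are 95% exact intervals for counting error, no p-value is given, and the spread between cultures or cells is unknown.

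Methylated H3 lysine 4 is laid down by the COMPASS family of enzymes. Its trimethylated form marks promoters of active and poised genes, above all those in CpG islands, and the dimethylated form also marks enhancers. Wide domains of the mark are known at genes that define a cell's identity, and in stem cells the mark also sits, together with the Polycomb mark, on promoters of silent developmental regulators. The name of the list is the authors'. The stem cell markers Pou5f1 and Nanog, like the other pluripotency, developmental, fibroblast and blood genes listed for this work, were not placed on the peaks, because gene positions in the mm9 build of the files were not used here. The label was therefore not checked against marker genes, and regions are named by their mm9 coordinates alone.

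ES3 was the shortest of the 3 lists, and most of its peaks were under 2 kb wide. Its peaks covered 22.6 Mb, or 0.915% of the summed chromosome lengths, against 2.56% for ES1 and 1.87% for ES2. The median ES3 peak was 1525 bp wide (1502 to 1548), below the medians of ES1 (1693.5 bp, 1676 to 1714) and ES2 (1667 bp, 1651 to 1685). This order turned with the choice of peaks: shortened to 12239 peaks from the top by score, ES1 had a median of 1094 bp and ES2 of 1167 bp, both below ES3, and shortened by reads 2446 and 2069 bp, both above it. The 10th and 90th percentiles of ES3 were 518 and 3395 bp, and the 90th percentile was 5013 bp in ES1 and 4262 bp in ES2. The smallest width in each list was 500 bp, and ES3 peaks of 500 to 519 bp numbered 1233, or 10.1% (9.55 to 10.6) of the list, against 9.44% (9.09 to 9.80) of ES1 and 8.65% (8.28 to 9.04) of ES2.

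Most of the covered sequence of ES3 lay in peaks of intermediate width. Peaks of 500 to 999 bp were 28.0% of the list but 10.2% of its covered length, and peaks of 1 to under 2 kb were 41.2% and 33.3%. Those of 2 to under 5 kb were 27.1% of the list and 42.4% of its covered length. Only 400 peaks were 5 to under 10 kb wide and 43 were wider still, and these 2 classes made up 11.3% and 2.71% of the covered length. In ES1 the same 2 classes were 7.88% and 2.15% of the peaks, in ES2 5.94% and 1.10%, and in ES3 3.27% and 0.351%.

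**Figure D1:**
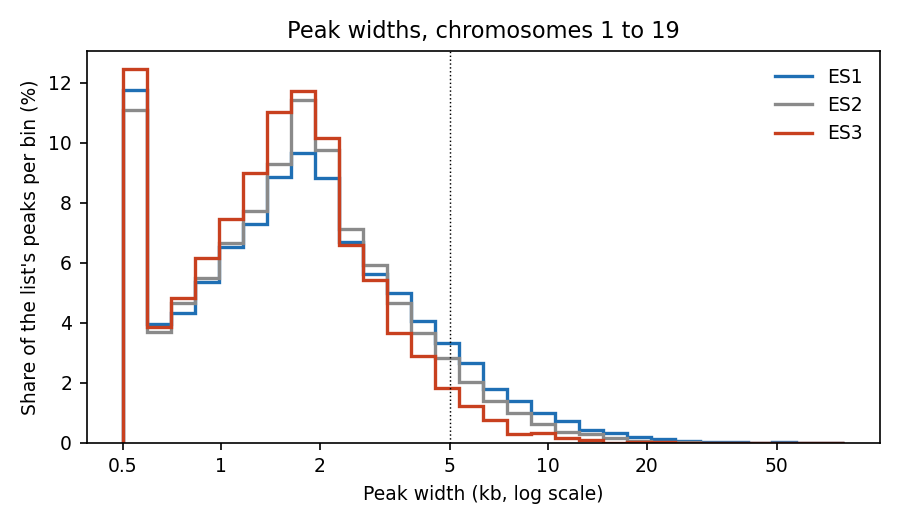
Share of each list's peaks in bins of width, for ES1, ES2 and ES3 on chromosomes 1 to 19, with width in kb on a log scale and a dotted line at 5 kb. ES3 stands above both other lists in every bin between 701 and 2292 bp and in the narrowest bin, of 500 to 592 bp. Past 5 kb it has in all 3.62% of its peaks against 10.0% in ES1 and 7.05% in ES2.

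Wide peaks were also scarcer in ES3 than in the other lists shortened to its length. Peaks of at least 5 kb were 3.62% of ES3 (3.30 to 3.97). When the other lists were shortened to 12239 peaks from the top by the authors' score, 6.78% of ES1 (6.34 to 7.24) and 4.94% of ES2 (4.56 to 5.33) were that wide. Shortened by reads instead, 16.3% of ES1 (15.7 to 17.0) and 10.0% of ES2 (9.51 to 10.6) were, though a choice by reads favours wide peaks. The ES3 interval lay below all 4 of these values.

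The reads behind ES3 were as many as those behind ES1. The authors' score was read as the read density of a peak's inner interval relative to the mean of its chromosome, from which whole reads were recovered. That 1 step of the score is 1 read is an assumption. On chromosomes 1 to 19 this gave 2387552 reads for ES3, 2398602 for ES1 and 2663168 for ES2, or 0.966, 0.970 and 1.08 reads per kb. The inner intervals of ES3 peaks held 8.99% of its reads (8.95 to 9.03), those of ES1 23.1% (23.1 to 23.2) and those of ES2 16.1% (16.0 to 16.1). Such shares depend on the length called. The inner intervals were 79.2% of the covered length in ES3, 69.1% in ES1 and 73.8% in ES2, and within them the lists had 12.0, 12.7 and 12.5 reads per kb. The median ES3 peak held 14 reads, the lowest 8 and the 90th percentile 27, and the lowest was also 8 in ES1 and ES2.

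Reads in ES3 followed width. Across the 12239 peaks of the list, width and reads had a Spearman correlation of 0.67, while width and score had one of -0.53. Both are descriptions, as the peaks come from a single pooled list and share its depth and its calling. The narrowest class had a median of 11 reads and 18.2 reads per kb, and peaks of 2 to under 5 kb had 21 reads and 10.3 reads per kb. In the widest class of 43 peaks the median was 82 reads, and the inner interval spanned at least 90% of the width in only 24. Peaks in the narrowest class were thus the densest. The inner interval that was counted spanned 96.1% of their width, against 58.0% in peaks of 5 to under 10 kb. Every ES3 peak held at least 8 reads, so a narrow peak is dense by construction. The score, as read here, also divides reads by inner length. Width and score had correlations of -0.43 in ES1 and -0.48 in ES2, so the negative sign is not particular to ES3.

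Most ES3 peaks fell where the other lists also had a peak. An ES1 peak overlapped 10640 of the 12239 ES3 peaks by at least 1 bp (86.9%), an ES2 peak 9469 (77.4%), and both 8773 (71.7%, 70.9 to 72.5). These shares and their order depend on the rule. With 50% of both peaks required they were 41.2% for ES1 and 41.0% for ES2. Against lists shortened to 12239 peaks they were 40.2% and 44.3% by score, with ES2 the higher, and 57.0% and 54.6% by reads. The share rose with width. In the narrowest class 76.6% (75.2 to 78.0) met ES1 and 64.7% (63.1 to 66.3) met ES2, in the class of 2 to under 5 kb 96.2% (95.5 to 96.8) and 89.8% (88.7 to 90.8). All 443 ES3 peaks of at least 5 kb met ES1, and 438 of them met ES2. A wide peak meets another list more easily by its size alone. Reads showed the same order: of ES3 peaks with 8 to 10 reads 78.4% (76.6 to 80.1) met ES1, and of the 1144 peaks with at least 28 reads 99.5% (98.9 to 99.8) did.

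**Figure D2:**
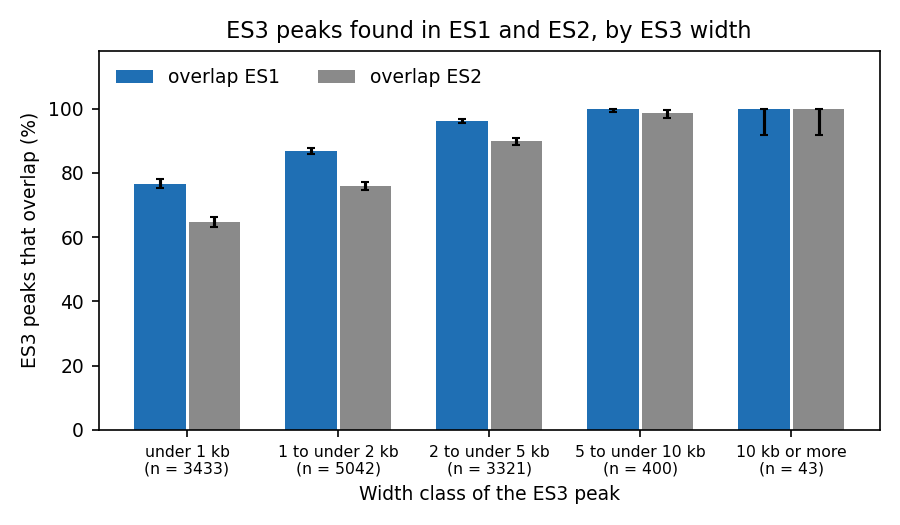
Share of ES3 peaks that overlap an ES1 or an ES2 peak by at least 1 bp, in 5 classes of ES3 width, with exact 95% binomial intervals for counting error. The share rises from 76.6% and 64.7% in the narrowest class to 100% in the widest class of 43 peaks.

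ES3 peaks were for the most part smaller than their partners. Of the ES3 bases, 78.7% lay inside ES1 peaks, which made up 28.1% of the ES1 bases, and 67.4% lay inside ES2 peaks, 33.0% of the ES2 bases. An ES1 peak held 4965 ES3 peaks completely, 40.6% of the list (39.7 to 41.4). Among 9012 pairs in which 1 ES3 peak met 1 ES1 peak and no other, the ES3 peak was the narrower in 73.2% (72.3 to 74.1), with medians of 1560 bp against 2255 bp. Against ES2 it was the narrower in 66.6% of 8504 pairs (65.6 to 67.6), with 1619 bp against 2065 bp. Splitting was less common: 720 ES1 peaks held parts of 2 or more ES3 peaks, and 48 ES3 peaks reached over 2 or more ES1 peaks. The most divided was the ES1 peak at chr15:77625424-77673819, 48396 bp wide, on which 7 ES3 peaks covered 19987 bp and 5 ES2 peaks covered 28242 bp.

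Where both lists had nearly the same inner interval, the read level of ES3 was below that of ES1 and near that of ES2. With at least 80% of both inner intervals shared, 1038 pairs with ES1 had a median density in ES3 of 0.828 times that of ES1, each scaled to its list's reads, and ES3 was the lower in 77.6% (75.0 to 80.2). In 990 pairs with ES2 the median ratio was 0.988, and ES3 was the lower in 52.0% (48.9 to 55.2). Both lists had to call a peak for a pair to be counted, so places that fell under the caller's limit in 1 list are not in these medians.

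The widest ES3 peak, at chr11:3030252-3099592, was 69341 bp wide with 1665 reads (1586 to 1747), and all of its width was inner interval. There ES2 had 1 peak over the same bases and ES1 had 2 peaks that covered 64710 bp. The second, at chr9:3013742-3038050, was 24309 bp wide with 1134 reads (1069 to 1202) or 46.6 reads per kb, and 1 ES1 peak covered 22700 bp of it. These 2 peaks began 29349 and 13251 bp after the first ES3 peak of their chromosome. Whether they are domains of the mark was not tested.

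The third widest was at chr18:65743335-65764662, with 21328 bp, but its inner interval of 713 bp held only 11 reads (5.49 to 19.7), and the reads in the rest of the peak are unknown. At chr12:87814586-87834394, 19809 bp wide, ES1 and ES2 each had 1 peak over all of it, and ES3 held 28 reads (18.6 to 40.5) in an inner interval of 2340 bp. The domain at chr9:114451327-114470450 was inner interval over its whole 19124 bp and held 175 reads (150 to 203), or 9.15 reads per kb. ES1 covered 18495 bp and ES2 18127 bp of it, each with 1 peak. These last 2 regions were thus wide in all 3 lists.

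Most of the widest ES3 peaks were largely, though often not fully, covered by ES1. The 43 ES3 peaks of at least 10 kb lay on 16 chromosomes, and a single ES1 peak met 39 of them. ES1 covered at least 90% of the bases of 39, and ES2 of 23, with medians of 99.3% and 92.2%. In 34 the ES1 peak was wider than the ES3 peak. The smallest share covered by ES1 was at chr5:15118786-15131969, 13184 bp wide with 173 reads (148 to 201) in ES3: ES1 covered 10.1% of it and ES2 87.9%. This region and the others named for their cover were chosen after their values were seen. By chromosome, the widest ES3 peak ranged from 9523 bp on chromosome 13 to the 69341 bp on chromosome 11, with a median of 13694 bp.

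The 5 ES3 peaks with the most reads were the 2 widest peaks and 3 narrower, very dense ones. The 3 were chr9:35112142-35113180 with 1549 reads (1473 to 1628), chr2:98502389-98507456 with 1399 (1327 to 1474) and chr12:3109738-3110238 with 1085 (1021 to 1152). Their densities were 1625, 2091 and 2166 reads per kb, against 12.0 over all ES3 peaks. These 3 belong to 8 places on chromosomes 1 to 19 that were among the 10 highest scores of every list. The 8 places held 2.70% of the in-peak reads of ES3, 1.15% of those of ES2 and 0.597% of those of ES1. Outside them the ES3 score had a median of 12.8 and a 99th percentile of 29.0. Without them ES3 had 12231 peaks that covered 22.6 Mb. Whether the 8 places carry the mark was not tested.

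Chromosomes differed in their density of ES3 peaks by up to 2 times. Chromosome 19 was the richest with 6.94 peaks per Mb, followed by chromosomes 17 (6.56), 8 (6.24), 11 (6.21) and 6 (5.93). Chromosomes 3 (3.47), 1 (3.60) and 13 (3.87) were the poorest, against 4.95 over all 19. The share of a chromosome's ES3 reads that fell in peaks ranged from 6.79% on chromosome 1 to 11.6% on chromosome 17. Across the 19 chromosomes peaks per Mb in ES3 and in ES1 had Spearman's rho = 0.89 and Pearson's r = 0.88. ES3 had 0.569 peaks for each ES1 peak on chromosome 6, the most of any chromosome, and 0.398 on chromosome 2, the least, against 0.473 over all. Chromosomes are few and share the list's depth, so these are descriptions.

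ES3 peaks became more frequent away from the start of the chromosomes, which in the mouse carries the centromere. The first 20% of chromosome length held 14.5% of ES3 peaks (13.9 to 15.1) and the last 20% held 29.0% (28.2 to 29.8). The same parts held 14.6% (14.2 to 15.0) and 28.3% (27.8 to 28.9) of ES1 peaks and 14.5% (14.0 to 15.0) and 28.6% (28.0 to 29.3) of ES2 peaks. The intervals of the 3 lists overlapped in both parts. The first part includes the unassembled beginning of each chromosome, where no peak can lie.

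Neighbouring ES3 peaks were often close together. The median gap between neighbours was 32345 bp, the 10th percentile 3882 bp and the 90th 385408 bp. Linked at gaps of up to 10 kb, 5013 ES3 peaks (41.0%, 40.1 to 41.8) had a neighbour and 7226 stood alone. They formed 1939 runs, of which 124 held at least 5 peaks, with 717 peaks or 5.86% of the list (5.45 to 6.29). More of the longer lists was linked, 56.7% of ES1 and 52.3% of ES2, since more peaks leave shorter gaps. Shortened to 12239 peaks by reads, 41.3% of ES1 (40.4 to 42.1) and 41.9% of ES2 (41.0 to 42.8) were linked, with intervals that overlapped that of ES3. Shortened by score the shares were 30.1% (29.2 to 30.9) and 31.8% (30.9 to 32.6), below ES3. Runs of at least 5 held 4.43% (4.07 to 4.81) of the ES1 peaks shortened by reads, below the ES3 interval, and 5.16% (4.78 to 5.57) of the ES2 peaks.

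**Figure D3:**
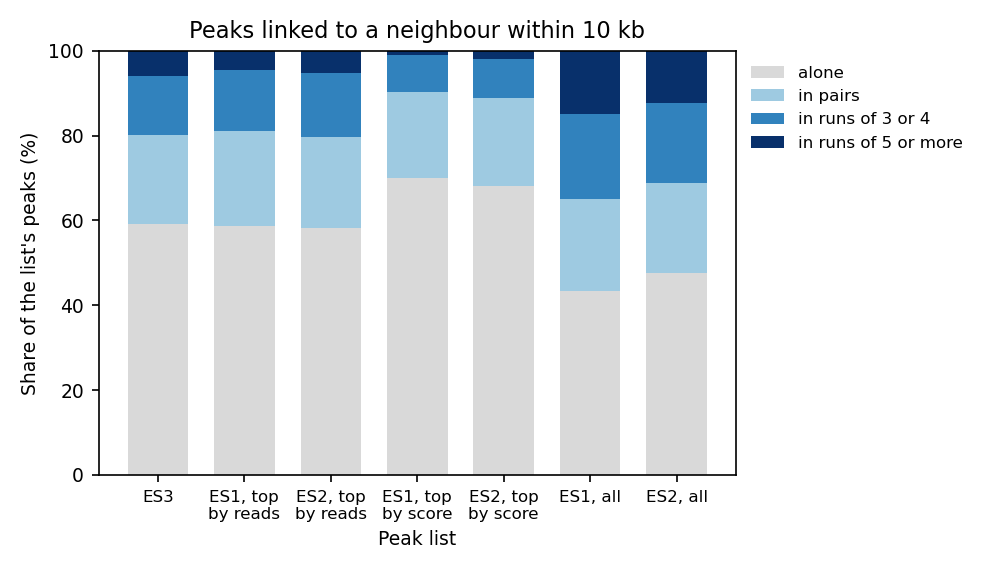
Share of the peaks of each list that stood alone or in runs of neighbours linked at gaps of up to 10 kb, for ES3, for ES1 and ES2 shortened to 12239 peaks by reads or by score, and for the whole ES1 and ES2 lists. The ES3 bar, with 59.0% alone, is close to the bars shortened by reads (58.7% and 58.1%) and below those shortened by score (69.9% and 68.2%).

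The longest run of ES3 peaks, at chr8:125034623-125102217, had 10 peaks in 67595 bp, which covered 24020 bp with 218 reads (190 to 249). ES1 covered 43604 bp of this span with 7 peaks and ES2 41626 bp with 7. Runs of 9 peaks lay at chr12:103892632-103965370, chr8:91513137-91579513 and chr13:44798875-44865368. In the chromosome 12 run ES3 covered 31958 bp, with 1 of its peaks 10196 bp wide, and ES1 covered 56154 bp with only 4 peaks. In the second chromosome 8 run ES3 covered 27679 bp and ES1 47378 bp with 5 peaks, and in the chromosome 13 run 26627 bp and 48779 bp with 5. The next place was shared by 5 runs of 8 peaks. In all 4 runs ES1 thus had fewer peaks and more covered bases.

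That pattern held for most of the 124 runs of at least 5 ES3 peaks. ES1 had fewer peaks than ES3 in 104 of them, as many in 16 and more in 4, while it covered more bases in 115. Summed over the runs, 717 ES3 peaks covered 1856 kb, 488 ES1 peaks 2910 kb and 573 ES2 peaks 2386 kb. The runs were chosen for their many ES3 peaks, which by itself favours fewer peaks in the other lists. The larger ES1 cover is not particular to the runs: the whole ES1 list covered 63.3 Mb and the whole ES3 list 22.6 Mb. Relative to ES3 cover, the ES1 excess was smaller in the runs than over the whole lists. The choice of runs by their ES3 peaks also favours ES3 cover, so nothing is concluded from this. Chromosome 4 had the most of these runs, 13, then chromosome 7 with 11, and chromosome 16 had 0. These chromosomes held 885, 886 and 444 ES3 peaks, and chromosome 6, with 887, had 8 runs.

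At the scale of megabases ES3 was uneven. In 2416 windows of 1 Mb between the first and the last peak of any list, the median was 2 ES3 peaks, the 75th percentile 7, the 90th 15 and the maximum 47. The variance of the counts was 9.75 times their mean. The 242 windows with the most ES3 peaks, 10% of all, held 43.1% of the list (42.3 to 44.0). For each list's own 242 richest windows the share was 37.1% (36.5 to 37.7) in ES1 and 38.7% (38.0 to 39.3) in ES2. It was 42.6% (41.7 to 43.4) in ES1 and 42.7% (41.8 to 43.6) in ES2 when shortened by reads, with intervals that overlapped that of ES3, and 38.0% and 38.7% when shortened by score.

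**Figure D4:**
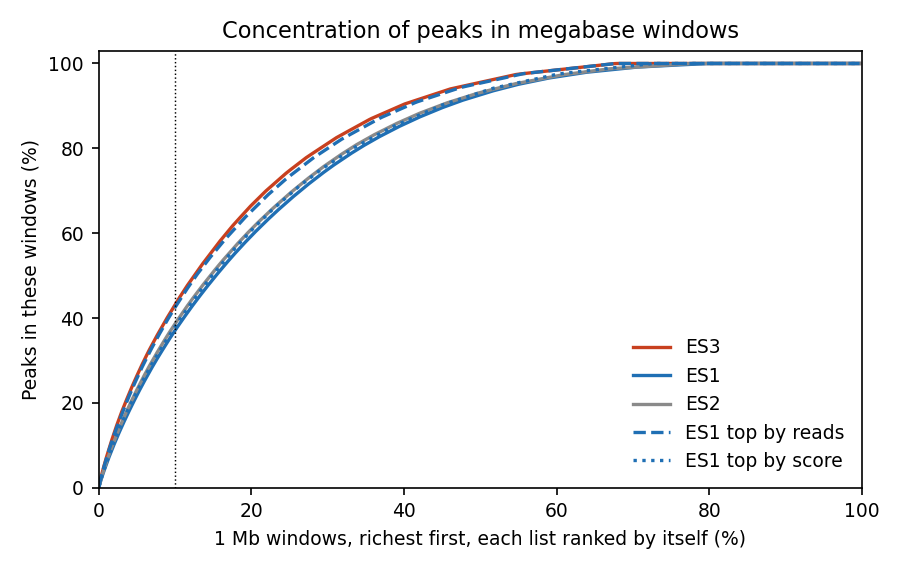
Share of a list's peaks held by its richest 1 Mb windows, plotted against the share of the 2416 windows taken, for ES3, ES1, ES2 and ES1 shortened to 12239 peaks, with a dotted line at 10% of windows. At that line ES3 stands at 43.1%, close to ES1 shortened by reads (42.6%) and above ES1 shortened by score (38.0%) and whole ES1 (37.1%).

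The 7 richest megabases of ES3 were rich in every list, and 4 of them were neighbours in pairs. The window at 52 to 53 Mb of chromosome 7 held 47 ES3 peaks, which covered 88.3 kb, with 73 peaks in ES1 and 66 in ES2. On chromosome 10 the windows at 79 to 80 Mb and 80 to 81 Mb held 43 and 42 ES3 peaks, with 70 and 71 in ES1. On chromosome 4 the window at 132 to 133 Mb held 40 and the one beside it, at 133 to 134 Mb, 39, with 62 and 56 in ES1. The count of 39 was shared with 2 windows of chromosome 7, at 30 to 31 Mb and 148 to 149 Mb, with 57 and 55 peaks in ES1. The windows were picked for their ES3 counts, so an ES3 excess over lists of its length would be built in. In all, 133 windows held at least 20 ES3 peaks and 33 at least 30. Of the windows of chromosome 8, 17.8% were among the 242 richest, and 16.9% of those of chromosome 19, against 1.69% on chromosome 13.

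At the other end, 779 of the 2416 windows (32.2%) held no ES3 peak, against 492 (20.4%) without an ES1 peak and 533 (22.1%) without an ES2 peak. Shortened to 12239 peaks by reads, ES1 also left 779 windows empty and ES2 764, but by score they left 660 and 632. Of the 779, 414 (53.1%) had no peak in either of the other lists. The rest were mostly sparse: 698 ES1 peaks lay in the ES3-empty windows, at most 16 in 1 window, and 33 of these windows had at least 5. Chromosome 1 had the largest share of empty windows, 40.7%, and chromosome 19 the smallest, 18.6%. Empty windows joined into 379 stretches, 29 of them of at least 5 windows, and the longest of 11.

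The longest stretches without an ES3 peak were almost without peaks in the other lists too. The longest, chr15:13025487-25294972, spanned 12.3 Mb and held 3 ES1 peaks, the strongest with 47 reads, and 2 ES2 peaks. On chromosome 14, chr14:87541292-99436791 spanned 11.9 Mb with 3 ES1 and 3 ES2 peaks, and chr14:106506383-117324556 spanned 10.8 Mb with 4 and 3. The stretch chr1:141393288-151946462, of 10.6 Mb, held 8 ES1 and 8 ES2 peaks, and chr7:39056865-48754257, of 9.70 Mb, held 2 and 3. Gaps of at least 1 Mb between ES3 peaks numbered 542 and made up 53.3% of the chromosomes' length, against 37.5% in ES1. In ES1 shortened by reads the share was 53.2%, and shortened by score 47.1%. A stretch without peaks is not shown to be unmarked, since on chromosomes 1 to 19 no peak of any list had fewer than 8 reads.

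Counts per window followed those of the other lists. Across the 2416 windows ES3 and ES1 had Spearman's rho = 0.93 and Pearson's r = 0.94, and ES3 and ES2 0.94 and 0.96. The windows share each list's depth and their own base composition, and neighbouring windows are alike, so no p-value is given. ES3 had peaks in 8 windows where neither other list had any, 9 peaks in all and at most 2 in a window.

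ES1 peaks were found in ES3 more often in peak-rich megabases than in poor ones. Of all 25878 ES1 peaks, 37.9% overlapped an ES3 peak and 61.4% an ES2 peak. In windows with 1 to 4 ES1 peaks 28.0% (25.6 to 30.6) met ES3, in windows with 10 to 19 35.2% (34.1 to 36.4), and in windows with at least 40 45.0% (43.6 to 46.4). The share met by ES2 rose from 53.2% (50.5 to 56.0) to 66.8% (65.4 to 68.1). ES1 peaks of rich windows were also stronger and wider, with medians of 17 reads and 1946.5 bp against 14 reads and 1281 bp, and wider peaks meet another list more easily. Among ES1 peaks of 14 to 18 reads alone, 22.6% (18.4 to 27.3) met ES3 in the poorest windows and 34.0% (31.3 to 36.8) in the richest, with median widths of 1391.5 and 1544.5 bp. For ES2 these shares were 56.7% (51.4 to 61.9) and 57.2% (54.3 to 60.1), with overlapping intervals, and the lowest was 49.6% (45.7 to 53.4) in windows with 5 to 9 ES1 peaks. The part of width within this class was not tested.

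**Figure D5:**
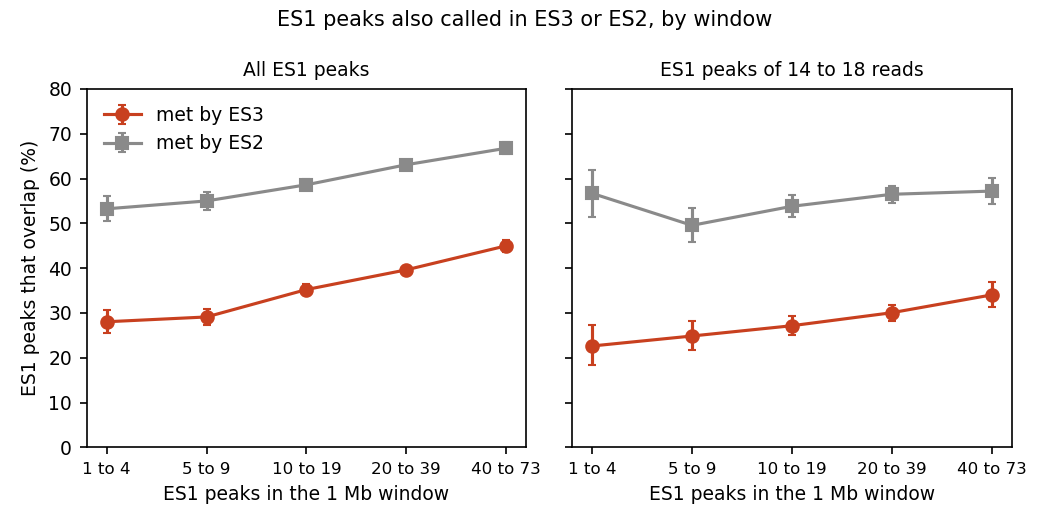
Share of ES1 peaks that overlap an ES3 or an ES2 peak, in classes of 1 Mb windows by their number of ES1 peaks, for all ES1 peaks (left) and for those of 14 to 18 reads (right), with exact 95% binomial intervals. The share met by ES3 rises from 28.0% to 45.0% on the left and from 22.6% to 34.0% on the right, while the share met by ES2 on the right starts at 56.7%, is lowest at 49.6% and ends at 57.2%.

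A small part of ES3 had no counterpart. Neither ES1 nor ES2 overlapped 903 ES3 peaks (7.38%), which had a median width of 940 bp, 12 reads and at most 28 reads, against 1712 bp and 15 reads in the peaks met by both. They held 5.26% of the reads in ES3 peaks. Of the 903, 56.4% (53.1 to 59.6) lay within 10 kb of an ES1 or ES2 peak, 78 within 1 kb, and 59 lay more than 100 kb away. No such share was computed for other positions, so this closeness is not shown to be particular to the 903 peaks. Fewer of them were linked to another ES3 peak within 10 kb, 25.6% against 42.2% of the other ES3 peaks, and fewer lay in windows with at least 20 ES3 peaks, 21.3% against 28.9%. The 903 and the other ES3 peaks were not matched for width or reads.

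The strongest of these peaks was at chr9:63773712-63777179, 3468 bp wide with 28 reads (18.6 to 40.5), 6489 bp from the nearest peak of the other lists. Next were chr2:130275472-130278349 and chr18:43550735-43553468 with 27 reads each (17.8 to 39.3), at 24528 and 44073 bp from such a peak. With 26 and 25 reads, chr11:117882706-117885387 and chr1:134974844-134978392 followed, the last only 280 bp from a peak of another list. These 5 regions were chosen by reads after their values were seen.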

How the data were processed

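Each peak list gives chromosome, start, end, an inner interval and a score, as deposited by the authors. Per the submitters' processing notes reads were aligned with Bowtie to mm9. No source used here gives the peak caller or the mark. The score carries no unit in the deposited files. Score times inner length was a whole multiple of 1 step per chromosome and list in 100% of peaks (tolerance 0.001), taken as reads. Simulated scores returned 60226 of 60226 read counts, which checks the code only, and overlaps and runs gave 0 errors in 20 simulated pairs of lists.

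Peaks overlapped at 1 bp or more, were linked into runs at gaps of up to 10 kb, and were counted by midpoint in 1 Mb windows. Shares have exact (Clopper-Pearson) binomial and reads exact Poisson 95% intervals, and medians order-statistic ones. Shortened lists kept the top 12239 peaks. Regions named were the 5 widest, the 5 with the most reads, the 5 richest windows, the 5 longest gaps and the 5 longest runs, with ties as stated. Peaks and gene lists were chosen with earlier results of these data known. Gene lists were not run, as the annotation held was of another build (GRCm38). Python 3.11.15, scipy 1.17.1 and pandas 2.3.3 were used.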

Additional observations from a re-analysis of the deposited data

Results flagged for a closer look

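The ES3 list also holds 152 peaks on chromosome X, which stand out only as signal outside the chromosomes described. Above, chromosome X entered only the total of the 3 lists, the checks of the score and the choice of the 10 highest scores per list. The 152 peaks had a median width of 1040 bp and 9 reads, and 90 of them met ES1 while 88 met ES2. Chromosome X had 0.912 ES3 peaks per Mb and 0.314 ES3 reads per kb, against 4.95 and 0.966 on chromosomes 1 to 19. The other lists also had few peaks there, 414 in ES1 and 341 in ES2, against 25878 and 21202 on chromosomes 1 to 19.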

How the results depend on the processing

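Chosen after seeing the data were the lists shortened by reads, the lists shortened by score for median widths, runs, gaps and windows, the differences between ES1 and ES2 in overlap, the restriction to ES1 peaks of 14 to 18 reads, the overlaps of the stronger ES3 peaks and the leaving out of the 8 highest places for runs and windows. Of 59 values under an alternative, 14 stayed within bounds, 42 moved beyond them and 3 turned their sign. The bounds were the interval of the main value or, only where it had none, 1.5 times of it. A value with a narrow interval thus counts as moved after a small change. Only the 3 signed differences between lists could turn. The median width of ES3 minus that of ES1 was -168.5 bp, but 431 bp with ES1 shortened by score and -921 bp by reads. Minus that of ES2 it was -142 bp, but 358 bp by score and -544 bp by reads. The share overlapping ES1 minus that overlapping ES2 was 9.57 percentage points, but 0.204 with 50% of both peaks required, -4.13 by score and 2.44 by reads. Merging peaks within 1 kb, or leaving out the 8 places, kept every ES3 value computed under them within these bounds. The 6119 ES3 peaks with the most reads covered 14.8 Mb with a median of 1993 bp, put 48.5% of their number in the richest 242 windows with a variance 6.19 times the mean, and overlapped ES1 in 92.4% and ES2 in 84.7%. Linking at 5 kb put 23.4% of ES3 peaks in runs and at 25 kb 63.6%. The richest 10% of windows held 49.8% of ES3 peaks with windows of 500 kb, 38.6% with 2 Mb and 48.8% by covered bases. Windows without an ES3 peak were 47.5% at 500 kb and 17.1% at 2 Mb, and the variance over the mean was 14.7 at 2 Mb. With 50% of both peaks required, ES3 overlapped ES1 in 41.2% and ES2 in 41.0%. With lists shortened by score these were 40.2% and 44.3% and by reads 57.0% and 54.6%. Shorter lists lower an overlap by construction. Peaks of 5 kb or more were 6.78% of ES1 and 4.94% of ES2 by score, and 16.3% and 10.0% by reads. ES1 peaks of 14 to 18 reads met ES3 in 22.6% in the poorest and 34.0% in the richest windows. No paired analysis was possible because each list is 1 pooled result and its labels give it no number. Other promoter distances and gene lists were not run, as no mm9 annotation was used here. At about 1 read per kb, the fewest reads behind a peak were 8 on chromosomes 1 to 19 and, in ES3, 6 on chromosome X.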

Other observations

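The number of ES3 peaks relative to ES1 peaks differed between peak-rich windows. These windows were chosen after their values were seen, and their differences were not tested. Among the 102 windows of 1 Mb with at least 40 ES1 peaks, the number of ES3 peaks per ES1 peak had a median of 0.548 and ranged from 0.300 to 0.786. The lowest was at 87 to 88 Mb of chromosome 17, with 12 ES3, 40 ES1 and 25 ES2 peaks, followed by 167 to 168 Mb of chromosome 2, with 15, 49 and 38. The highest was at 88 to 89 Mb of chromosome 12, with 33, 42 and 39.

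ES3 had more peaks than ES1 in 44 of the 2416 windows, which held 143 ES3 peaks. The one with the most ES3 peaks among them was at 22 to 23 Mb of chromosome 14, with 21 ES3, 17 ES1 and 21 ES2 peaks. At 91 to 92 Mb of chromosome 8, the megabase of one of the runs of 9 peaks, the lists held 13, 12 and 18. A higher count did not mean a larger cover in the runs there. In that run 9 ES3 peaks covered 27679 bp and 5 ES1 peaks 47378 bp. In the chromosome 14 window, the run at chr14:22341781-22384839 had 7 ES3 peaks over 20841 bp and 3 ES1 peaks over 37479 bp.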
